A study of Mus musculus with 45 samples.

Results

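The gene scores of 9 Kruppel-like factor genes (Klf2, Klf3, Klf4, Klf5, Klf6, Klf7, Klf9, Klf10 and Klf13) were followed in mouse erythroblasts that were either wild type (WT) or knockout (KO) for Stag2. The 9 are a list of named genes, set with earlier results of these data known, out of 17 Klf genes and 24333 genes in the deposited table, and the other 8, Klf1 among them, are given below as a list. A gene score sums the chromatin accessibility (ATAC) signal around a gene, so it measures accessibility and not expression. The Stag2 protein belongs to cohesin, which holds chromatin loops together. All 6 libraries came from Ter119+ erythroblasts, that is, from red cell precursors sorted by the surface protein Ter119, and were collected when 6 to 8 weeks had passed since pIpC dosing, which the labels give for both genotypes. The 3 WT and 3 KO libraries were the ATAC side of single-nucleus 10x multiome preparations. The strain, the age of the mice, the Cre driver and whether animals were pooled are not given in the sources used here. Of the series' 45 samples, the RNA side of these libraries, the stem and progenitor multiome, the CUT&RUN and the Hi-C samples were not analysed here.

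Kruppel-like factors are zinc finger transcription factors that bind GC-rich and CACCC-type elements, and members of the family can compete for the same element. Klf1 is the family's main activator of erythroid genes, and its targets in red cell precursors include Klf3. The 9 genes fall by the partners of their proteins into activators that work with histone acetyltransferases (Klf2, Klf4, Klf5, Klf6, Klf7), a repressor that recruits CtBP (Klf3), and factors that recruit Sin3A (Klf9, Klf10, Klf13).

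The table held 34073 nuclei, with 5819 to 6990 in the WT libraries and 4617 to 4925 in the KO libraries (two-sided exact permutation p = 0.1, below which 3 libraries against 3 cannot go, and 0.24 after Benjamini-Hochberg adjustment over 12 tests). Fragment ends in peaks made up a median of 62.2% to 64.7% in WT and 57.4% to 59.9% in KO (exact p = 0.1, adjusted 0.24). Median fragments per nucleus ranged from 7122.5 to 8056 in WT and from 7742 to 8874 in KO. The same barcode sequence occurred in more than 1 library for 725 barcodes (1478 nuclei). Nuclei were classed by the authors as Early, Int (read here as intermediate) or Late, and were assigned to clusters C1 to C11. Int nuclei were 32.6%, 44.0% and 57.2% of the WT and 48.8%, 44.2% and 48.8% of the KO libraries, and Early nuclei 1.49%, 4.04% and 0.286% and 6.38%, 0.541% and 0.325%. In Int nuclei the median depth was 10121 to 12877 fragments in WT and 13911 to 14998 in KO, and in Late nuclei 5693 to 6812 and 6043 to 6503.5. The part of these differences in the results below was not tested. Of 10 erythroid marker genes 9 were in the table, and none was at 0 in any library. Their summed score was 1965 to 2172 in WT and 1704 to 1924 in KO. The score of Stag2 itself did not differ detectably (log2 change -0.054, limma adjusted p = 0.348), and a score summed over a whole gene does not check a deletion within it.

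Of the 9 Klf genes, 5 passed the test over all nuclei. Klf6 and Klf4 were higher in KO, and Klf5, Klf3 and Klf13 were lower. Klf2, Klf7, Klf9 and Klf10 did not pass (limma, two-sided, Benjamini-Hochberg adjusted p under 0.05). Over all 17682 genes tested, 43.3% passed, 29.1% higher and 14.2% lower in KO, so a count of 5 of 9 is not far from the share among all genes. The libraries of the genotypes did not overlap for 6 of the 9, against 55.4% of all genes (KO above for 2, against 36.1%, and below for 4, against 19.3%). The median log2 change was -0.033 over the 9 genes and 0.096 over all genes tested. Change went with level across the table, with genes split by score into 4 equal groups: the median was 0.26 in the lowest group, 0.24 and -0.022 in the next ones and -0.071 in the highest. Scaling moved the split of all calls. It was 5144 higher and 2517 lower as reported, 3018 and 5508 with each library centred on its median log2 score over genes, 2549 and 2890 with quantile normalization, and 2829 and 2411 with cyclic loess. The median change of all genes moved from 0.096 to -0.050 with median centring. Klf3, Klf5 and Klf6 kept their direction and their call under each of the 19 alternatives run for all nuclei.

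**Figure D1:**
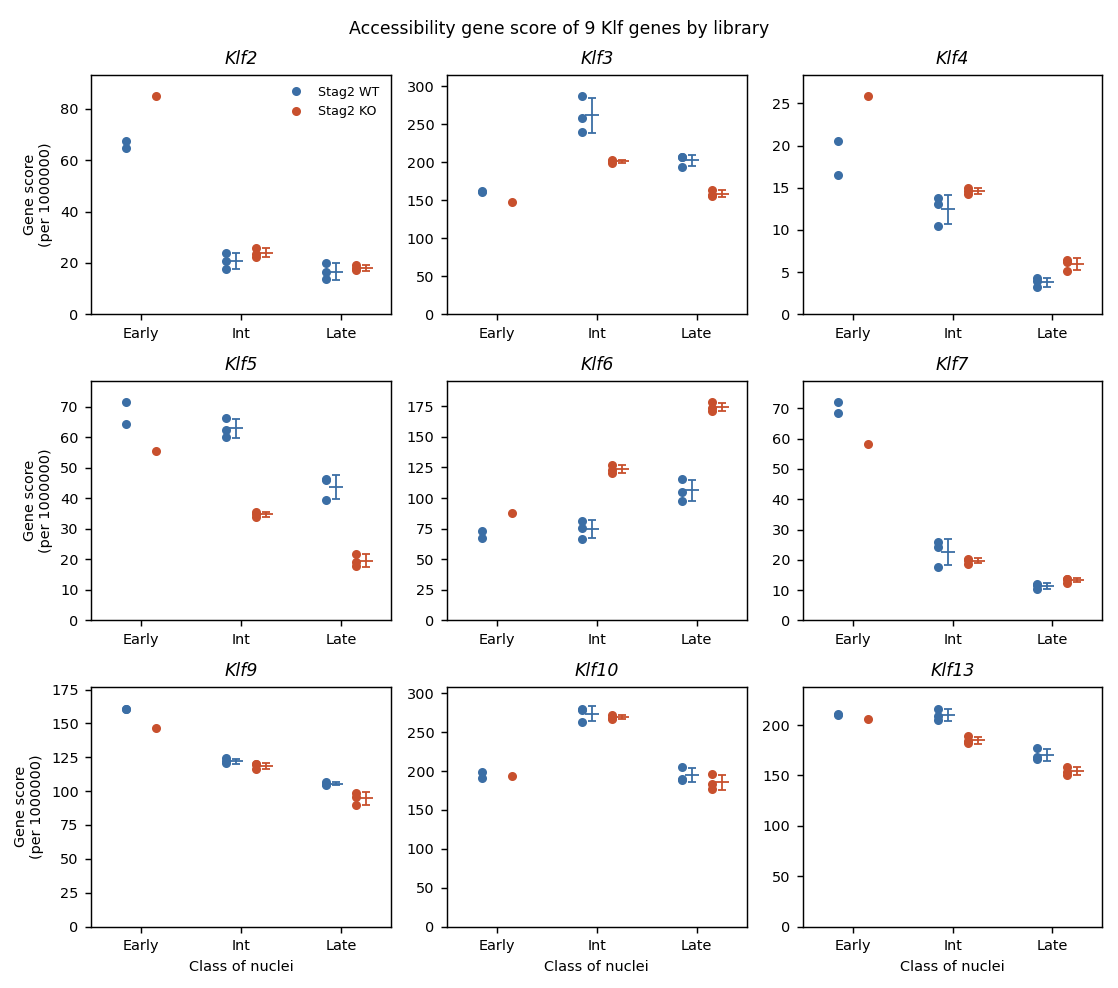
Gene score of each Klf gene (library mean rescaled to a sum of 1000000, y axis from 0) in Early, Int and Late nuclei of each library with at least 50 such nuclei, with a point per WT or KO library and, for groups of 3, the mean and SD. Klf6 lies higher and Klf5 and Klf3 lie lower in all KO libraries than in all WT libraries in both Int and Late nuclei.

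Promoter sequences from RefSeq were matched by symbol for 7 of the 9 genes, all but Klf5 and Klf10, and those of the 4 matched genes with a called change over all nuclei are shown. The bases shown are the 250 upstream of each start in GRCm38.p6, read 5′ to 3′ on the gene's strand, and capitals mark matches to CCNCNCCC, the letters of the family's CACCC and GC box elements, or its reverse complement. They are printed because Klf proteins bind such letters and all 4 genes moved.
Klf3 (chr5:64803271-64803520, plus strand): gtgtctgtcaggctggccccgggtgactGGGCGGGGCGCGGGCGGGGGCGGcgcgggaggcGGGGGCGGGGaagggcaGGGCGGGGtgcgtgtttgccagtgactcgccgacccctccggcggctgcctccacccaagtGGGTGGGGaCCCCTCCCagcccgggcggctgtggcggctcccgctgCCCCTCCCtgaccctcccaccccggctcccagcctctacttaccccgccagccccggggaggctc
Klf4 (chr4:55532476-55532725, minus strand): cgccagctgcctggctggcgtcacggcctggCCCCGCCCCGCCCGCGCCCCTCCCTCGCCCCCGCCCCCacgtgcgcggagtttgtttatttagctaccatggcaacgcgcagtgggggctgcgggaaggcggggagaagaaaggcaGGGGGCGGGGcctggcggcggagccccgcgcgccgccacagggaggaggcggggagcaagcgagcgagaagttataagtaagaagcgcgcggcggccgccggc
Klf6 (chr13:5861239-5861488, plus strand): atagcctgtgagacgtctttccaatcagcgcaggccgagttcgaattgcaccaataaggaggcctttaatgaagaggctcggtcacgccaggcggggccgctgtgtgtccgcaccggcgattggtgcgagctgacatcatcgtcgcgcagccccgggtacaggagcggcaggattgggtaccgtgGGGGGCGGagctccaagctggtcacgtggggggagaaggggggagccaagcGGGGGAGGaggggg
Klf13 (chr7:63938916-63939165, minus strand): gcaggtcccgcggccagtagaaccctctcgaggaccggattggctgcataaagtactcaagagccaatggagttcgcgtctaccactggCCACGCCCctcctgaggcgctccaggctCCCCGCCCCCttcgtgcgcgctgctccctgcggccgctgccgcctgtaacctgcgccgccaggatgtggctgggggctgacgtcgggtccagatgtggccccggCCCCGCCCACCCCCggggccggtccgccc
The Klf3 window held 10 matches, Klf4 9, Klf6 2 and Klf13 5, where matches can overlap one another and the GC box GGGCGG. Of the other members with an entry, Klf7 had 8 matches, Klf2 4 and Klf9 none. Thus 6 of 7 windows held the motif, against 45.9% of 32851 promoter windows of the same length. GGGCGG was present in 6 of 7 windows and in 32.7% of all. The GATA-type string AGATAA was in 0 of 7 windows and in 9.99% of all, with both strands searched for every motif. The printed windows were 78.4% (Klf3), 74% (Klf4), 64.8% (Klf6) and 71.6% (Klf13) G and C. CCNCNCCC and GGGCGG are made of these letters apart from N. The windows compared were not matched for G and C, so the shares do not show enrichment or depletion of binding elements. A match is a string of letters and not a measured binding site.

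Klf6, an activator known for roles in macrophages and in yolk sac blood formation, was higher in KO by 1.62-fold. Its gene score over all nuclei was 87.3, 90.7 and 95.7 in WT and 145.2, 152.6 and 146.5 in KO. All KO libraries lay above all WT libraries. The log2 change was 0.69 (SE 0.044, limma adjusted p = 3.43e-09), in the 97.3 percentile of changes among genes tested. The gene lies on mm10 chromosome 13, bases 5861489 to 5870393. 1700016G22Rik, whose start lies at -3.40 kb from that of Klf6 on the other strand, was also higher (0.68, adjusted p = 4.76e-09). Whether the 2 scores share fragments was not tested.

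In Int nuclei Klf6 had scores of 66.7, 75.5 and 81.1 in WT and 122.5, 127.2 and 120.7 in KO, a log2 change of 0.73 (SE 0.057, limma adjusted p = 3.36e-10). In Late nuclei the scores were 97.7, 105.3 and 115.5 against 178.1, 173.6 and 171.5, with a change of 0.71 (SE 0.054, adjusted p = 2.79e-07). The genotypes did not overlap in either class. The changes in the 2 classes did not differ detectably (difference -0.013, SE 0.049, limma adjusted p = 0.915). Counting nuclei with any Klf6 signal, among nuclei of 5000 to 15000 fragments, gave 40.9% to 46.6% of Int nuclei in WT and 66.4% to 69.1% in KO. In Late nuclei the shares were 46.2% to 48.8% and 68.5% to 70.1%.

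Klf5, an activator studied in embryonic stem cells, epithelia and granulocyte development, was lower in KO, at 0.533 of its WT level. The scores over all nuclei were 52.8, 54.3 and 51.3 in WT and 28.1, 26.3 and 28.7 in KO. Every KO library was below every WT library. The log2 change was -0.91 (SE 0.062, limma adjusted p = 6.88e-09). It stood at percentile 0.0283 of the changes among genes tested. The gene lies on mm10 chromosome 14, bases 99298691 to 99313412, with no other gene start of the table within 100 kb.

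Klf5 scores in Int nuclei were 66.4, 62.3 and 60.2 in WT and 34.0, 34.8 and 35.7 in KO (log2 change -0.83, SE 0.063, limma adjusted p = 1.74e-10). In Late nuclei they were 45.9, 46.2 and 39.3 against 17.8, 19.2 and 21.8 (-1.12, SE 0.086, adjusted p = 3.28e-07). The groups were apart in both classes. Klf5 was 1 of 9 members whose change differed between classes, by -0.29 (SE 0.085, limma adjusted p = 0.0423), where 7.49% of 17747 genes did (in Late the change was higher for 5.35% and lower for 2.14%). That call was lost under 9 of 14 alternatives, with adjusted p between 0.0156 and 0.348. With fragments held to 5000 to 15000, the share of Int nuclei with any Klf5 signal was 45.0% to 46.2% in WT and 30.3% to 32.3% in KO, and that of Late nuclei 26.9% to 31.3% and 16.0% to 18.1%.

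**Figure D2:**
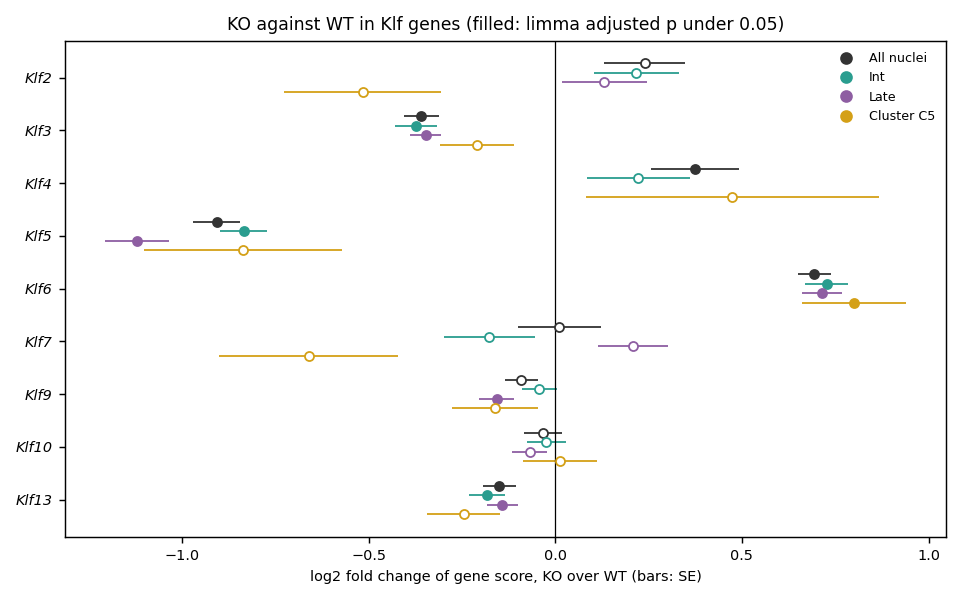
Log2 change of gene score, KO against WT, for each Klf gene over all nuclei and within Int, Late and cluster C5 nuclei (points, with bars for the standard error, filled where limma's adjusted p is under 0.05). Klf5 lies at -0.91, -0.83 and -1.12 and Klf6 at 0.69, 0.73 and 0.71 in all, Int and Late nuclei, and Klf4 has no Late point because its mean score there was below 5.

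Klf4, a pluripotency and monocyte factor, was scored low. Its values over all nuclei were 7.32, 8.94 and 7.42 in WT and 11.7, 10.2 and 9.63 in KO. The groups did not overlap, and the log2 change was 0.37 (SE 0.12, limma adjusted p = 0.0178), and the lowest-scored group of genes, which holds it, had a median change of 0.26. The call was lost under 7 of 18 alternatives, with quantile normalization giving 0.11 (adjusted p = 0.305) and cyclic loess 0.11 (0.290). Leaving out WT replicate 1, WT replicate 3 or KO replicate 1 also ended it (adjusted p = 0.0784, 0.0513 and 0.0813). So did holding nuclei to 5000 to 15000 fragments and weighting nuclei by fragments. In Int nuclei alone it did not pass (0.22, adjusted p = 0.276). In Late nuclei its scores were 4.26, 3.93 and 3.22 in WT and 6.46, 6.21 and 5.10 in KO, which did not overlap, but the mean was under the minimum of 5 and the gene was not tested there. With no minimum the Late change was 0.53 (SE 0.13, limma adjusted p = 0.00667). In that fit 8631 of 24027 genes were higher in KO and 2911 lower, and the median change was 0.19.

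Klf2 keeps naive lymphocytes quiescent and circulating, and acts on embryonic globin genes. Its scores over all nuclei were 16.7, 21.7 and 18.6 in WT and 25.8, 21.0 and 20.9 in KO, and the groups overlapped (0.24, SE 0.11, limma adjusted p = 0.0788). Without WT replicate 2 the change was 0.33 (adjusted p = 0.0171), and it was 0.0043 with quantile normalization (adjusted p = 0.975) and 0.053 with cyclic loess (0.672). KO replicate 1, the highest library, also had the largest share of Early nuclei, in which its Klf2 score was 84.9, against 25.9 in Int and 17.1 in Late, and the part of that share was not tested. In Int nuclei the scores were 20.7, 23.7 and 17.5 against 25.9, 22.5 and 23.6, which overlapped, and the change did not pass (0.22, SE 0.11, adjusted p = 0.187). Of 17 alternatives for Int nuclei, leaving out WT replicate 2 brought it past (0.32, adjusted p = 0.0409). Across these alternatives the change went down to 0.015 and the limma adjusted p up to 0.911. The share of Int nuclei with any Klf2 signal, at 5000 to 15000 fragments, was 15.6% to 18% in WT and 18.2% to 22.7% in KO. In Late nuclei the scores were 13.6, 16.4 and 20.1 against 17.1, 19.3 and 17.99 (0.13, adjusted p = 0.351). The value of WT replicate 3 there rested on 1 nucleus of 1310 fragments, in cluster C2, whose score of 151.1 made up 25.4% of that library's Klf2 sum. Without that nucleus, an alternative chosen after seeing the data, the library's Late score was 14.98, all 3 KO libraries lay above all 3 WT libraries, and the change was 0.26 (limma adjusted p = 0.0249). Over all nuclei it was then 0.30 (adjusted p = 0.0428). The group of genes by score that holds Klf2 (means of 10.56 to 29.79) had a median change of 0.24 over all nuclei. Leaving out WT replicate 3 whole gave 0.27 in Late nuclei (adjusted p = 0.0425), while with that nucleus kept quantile normalization gave -0.11 (0.469) and cyclic loess -0.055 (0.746).

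Klf7, known for its part in neuronal development, scored 16.7, 19.4 and 15.4 over all nuclei in WT and 19.6, 16.1 and 16.3 in KO. The groups overlapped and the change was 0.011 (SE 0.11, limma adjusted p = 0.941). Its sign depended on scaling, since quantile normalization gave -0.26 (adjusted p = 0.0131) and cyclic loess -0.20 (adjusted p = 0.0447). In Int nuclei the change was -0.18 (adjusted p = 0.327) and in Late nuclei 0.21 (adjusted p = 0.0746), neither of which passed. The Late change was past the threshold without a variance trend (0.21, adjusted p = 0.0411) and with nuclei weighted by fragments (0.24, 0.0298). The Int change was past the threshold with quantile normalization (-0.38, adjusted p = 0.00410), cyclic loess (-0.33, 0.0115) and median centring (-0.35, 0.00162), and without WT replicate 3 (-0.34, 0.0124). The difference between the changes in Late and Int did not pass (0.39, SE 0.16, limma adjusted p = 0.144), and only 1 of 13 alternatives brought it past, leaving out WT replicate 3 (0.58, adjusted p = 0.00499).

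Klf3, the CtBP-recruiting repressor, was lower in KO. Its scores over all nuclei were 223.0, 219.2 and 246.9 in WT and 178.6, 179.3 and 177.9 in KO. The KO values lay close together and below every WT value. The log2 change was -0.36 (SE 0.048, limma adjusted p = 2.02e-05), at percentile 1.49 of all changes. In Int nuclei the scores were 257.8, 239.9 and 286.5 against 202.8, 199.3 and 201.1 (-0.37, SE 0.057, adjusted p = 2.13e-05). In Late nuclei they were 207.1, 206.1 and 193.9 against 156.5, 163.7 and 156.1 (-0.35, SE 0.041, adjusted p = 1.69e-05). The changes in the 2 classes did not differ detectably (0.025, SE 0.063, limma adjusted p = 0.865). The share of nuclei with any Klf3 signal, at 5000 to 15000 fragments, was 94.3% to 96.9% in WT and 90.5% to 91.5% in KO for Int, and 84.5% to 87.4% and 76.9% to 79.3% for Late. The gene lies on mm10 chromosome 5, bases 64803523 to 64830129, with no other start within 100 kb.

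Of the Sin3A-recruiting factors, Klf13 was lower in KO. It activates chemokine genes in T cells and is also known for a role in erythroid maturation. Its scores over all nuclei were 182.3, 195.7 and 188.2 in WT and 174.2, 164.4 and 171.3 in KO. The groups were apart and the change was -0.15 (SE 0.044, limma adjusted p = 0.0121), at percentile 12.1 of all changes. The highest-scored group of genes, which holds Klf13, had a median change of -0.071. Changes of -0.18 in Int (adjusted p = 0.00763) and -0.14 in Late nuclei (adjusted p = 0.0110) also passed. The calls were lost under 6 of 19, 4 of 17 and 5 of 18 alternatives, which include quantile normalization and cyclic loess in each, and leaving out KO replicate 2 (adjusted p = 0.0592, 0.0552 and 0.0525) in each. Leaving out WT replicate 2 ended it over all nuclei (adjusted p = 0.0578) and in Late nuclei (0.0634).

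Klf9 is induced by glucocorticoids and thyroid hormone. Its scores over all nuclei were 112.1, 115.6 and 115.0 in WT and 110.9, 101.6 and 109.0 in KO. No KO library reached a WT library, yet the change of -0.092 did not pass (SE 0.044, limma adjusted p = 0.0944). It was past the threshold with median centring (-0.24, adjusted p = 0.00968) and with Int and Late weighted equally (-0.095, 0.0459). In Late nuclei it was 106.8, 104.7 and 105.2 against 95.8, 89.4 and 98.6, a change of -0.16 (SE 0.046, adjusted p = 0.0117) that was lost with quantile normalization, with cyclic loess and without KO replicate 2 (adjusted p = 0.09997, 0.132 and 0.0660). The difference of its change between classes did not pass (-0.11, limma adjusted p = 0.174).

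Klf10, an early response gene of TGF-beta, scored 213.6, 237.4 and 241.2 in WT and 227.4, 217.0 and 231.3 in KO. The groups overlapped, and the change was -0.033 (SE 0.051, limma adjusted p = 0.600). It did not pass in Int (-0.024, adjusted p = 0.788) or in Late nuclei (-0.069, adjusted p = 0.234) either. Of 18 alternatives for Late nuclei, median centring put it past the threshold (-0.13, adjusted p = 0.0379).

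Within the classes, 4 of 9 Klf genes passed in Int nuclei (Klf6 higher, Klf5, Klf3 and Klf13 lower), against 19.8% of 19465 genes, 12.7% higher and 7.1% lower. The libraries did not overlap for 6 of 9, against 37.3% (KO above for 2, against 22.8%, and below for 4, against 14.4%). In Late nuclei 5 of 8 tested passed (Klf6 higher, Klf5, Klf3, Klf9 and Klf13 lower), against 51.4% of 15886 genes, 32.9% higher and 18.5% lower. The libraries did not overlap for 6 of these 8, against 59.5% (KO above for 2, against 36.8%, and below for 4, against 22.7%). The split of all calls in Late nuclei moved from 5220 higher and 2941 lower to 4120 and 4481 with median centring, and in Int from 2476 and 1382 to 1353 and 4197.

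The classes are separate sets of nuclei, but the authors assigned them within these same data, so levels by class are given without a test. Klf6 scored higher in Late than in Int nuclei in all 6 libraries, by 0.51 in WT and 0.49 in KO on the log2 scale. Klf3, Klf4, Klf5, Klf7, Klf9, Klf10 and Klf13 were lower in Late in all 6 libraries. The drop was greatest for Klf4 (-1.49 in WT, -1.18 in KO) and for Klf7 in WT (-0.93) and Klf5 in KO (-0.80), and least for Klf9 in WT (-0.21). Klf2 was lower in Late in 5 of 6 libraries, the exception being WT replicate 3, where the nucleus described above lies. Among 17747 genes, 47.0% were lower and 26.0% higher in Late in all 6 libraries, with a median of -0.15 in each genotype.

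**Figure D3:**
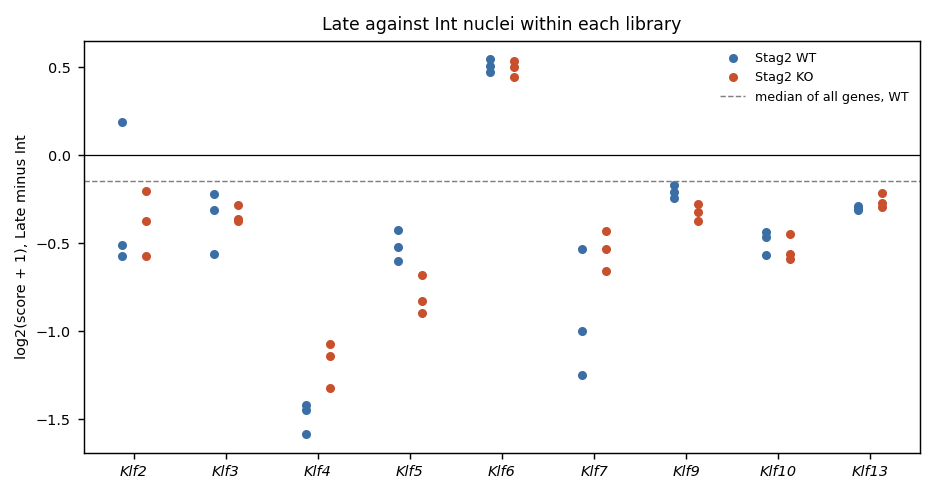
Log2 difference of gene score, Late minus Int, within each library (points, WT and KO) for each Klf gene, with a dashed line at the median of all genes in WT, -0.15. Klf6 alone of the 9 genes lies above 0 in all 6 libraries, at 0.45 to 0.54, and Klf4 lies lowest, at -1.58 to -1.07.

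Only 3 libraries held at least 50 Early nuclei, namely WT replicates 1 and 2 and KO replicate 1, so no test of genotype was made there. Their Early nuclei had medians of 41018 to 44045.5 fragments, with 45.2% to 50.3% in peaks and a start site enrichment of 17.3 to 19.6, where their Int nuclei had 12671 to 14532 fragments, 55.1% to 56.8% and 30.7 to 32.3. The part of these differences in the levels by class was not tested. Klf2 and Klf7 scored higher in Early than in Int or Late nuclei. Klf2 had 64.7 and 67.5 in WT and 84.9 in KO, against at most 25.9 in any library in Int. Klf7 had 71.9, 68.6 and 58.3, against at most 25.8 in Int. Klf4 had 16.6, 20.5 and 25.8, against 13.1, 13.8 and 14.7 in Int nuclei of the same libraries. Klf9 also peaked there, with 161.0, 160.4 and 146.3. Klf3 was lower in Early (160.7, 161.7 and 147.6) than in the other classes of the same libraries. Klf6 had 72.9 and 67.7 in WT, on either side of its Int levels of 66.7 and 75.5, and 88.1 in KO, below its Int level of 122.5. Klf5 had 64.2 and 71.4 in WT, also on either side of its Int levels of 66.4 and 62.3, and 55.5 in KO, above its Int level of 34.0.

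Most clusters held nuclei of nearly 1 genotype, so cluster and genotype cannot be told apart there. In Int, cluster C11 (0.06% KO) and cluster C10 (99.9% KO) had Klf6 scores of 61.2 to 70.1 and 123.2 to 130.03. Their Klf5 scores were 62.5 to 66.7 and 33.7 to 39.0. The gap in Klf6 was smaller between the Int clusters C9 (0.971% KO) and C8 (99.4% KO), with scores of 73.2 to 87.0 and 98.9 to 104.5, while Klf5 stood at 57.7 to 65.0 and 35.5 to 38.5. In Late, cluster C3 (0.74% KO) and cluster C2 (97.4% KO) are the counterparts. The WT nuclei that the authors placed in C2, 64, 58 and 68 per library with a median of 1919.5, 2258.5 and 1952 fragments, had Klf6 scores of 171.1, 185.1 and 166.4. Those lay near the KO nuclei of C2 (177.7, 174.7 and 170.3) and above the WT nuclei of C3 (97.3, 104.5 and 114.6). Klf5 in the same WT nuclei ranged from 9.38 to 66.0 over the libraries, so it gave no clear level. Membership of a cluster was decided from the same accessibility data, so these are descriptions.

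**Figure D4:**
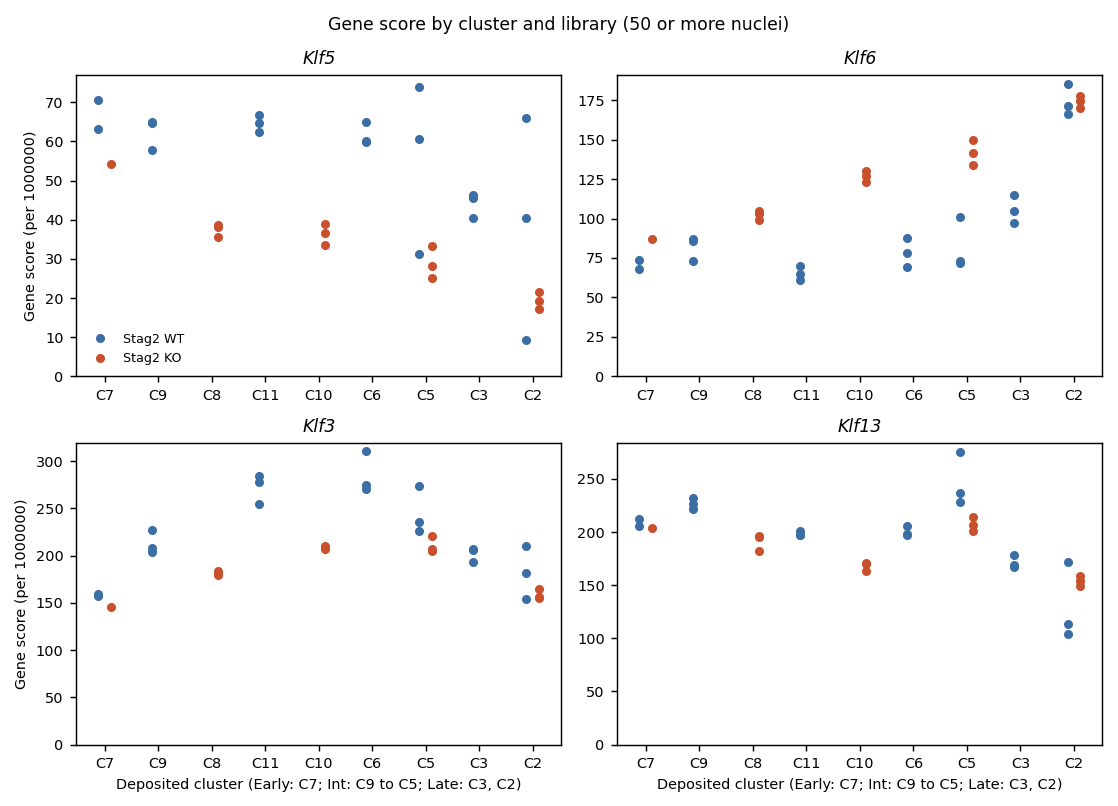
Gene score of Klf5, Klf6, Klf3 and Klf13 (library means rescaled to a sum of 1000000, y axis from 0) by cluster, from Early to Late, in each library with at least 50 nuclei of the cluster, with WT and KO libraries as separate points. C3, C6 and C8 to C11 carry points of 1 genotype only, and C2, C5 and C7 of both. Klf6 in C2 is at 166.4 to 185.1 in WT libraries and 170.3 to 177.7 in KO libraries.

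Cluster C5 held Int nuclei of both genotypes (143 to 261 WT and 528 to 598 KO nuclei per library) and was tested on its own. Klf6 passed, 1 of 9 members against 0.89% of 19438 genes, 0.412% higher and 0.478% lower. Its scores were 73.2, 71.6 and 100.7 in WT and 141.4, 149.7 and 134.1 in KO, and the change was 0.80 (SE 0.14, limma adjusted p = 0.0242). The libraries did not overlap for 6 of 9, against 19.6% (KO above for 1, against 11.7%, and below for 5, against 7.89%). Klf5 had 73.9, 60.6 and 31.3 in WT and 33.3, 28.1 and 25.2 in KO. WT replicate 3 overlapped the KO range, and the change of -0.84 did not pass (SE 0.27, limma adjusted p = 0.195). Without that library it was -1.19 (adjusted p = 0.0264). The Klf6 call was lost without WT replicate 2 or any 1 KO library (adjusted p = 0.0640 to 0.175).

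Genes most like each Klf gene over 12 profiles (6 libraries, Int and Late nuclei) were taken by Pearson correlation of log2 score, with no test, since profiles share nuclei handling, scaling and genotype. Klf5 ran closest to Bcorl1 (r = 0.987) and 5730460C07Rik (r = 0.985). Klf6 ran closest to Nfic (r = 0.985) and Cd9 (r = 0.985), and Klf3 to Fam241a (r = 0.977) and Hint1 (r = 0.967). Klf13 was closest to Fscn1 (r = 0.990) and Uxs1 (r = 0.987), Klf9 to Zfyve1 (r = 0.987) and 2510003B16Rik (r = 0.986), and Klf10 to Tsen15 (r = 0.994) and Trmt2a (r = 0.993). Klf7 was closest to Hfm1 (r = 0.992) and Ikzf2 (r = 0.983), Klf4 to Iqschfp (r = 0.996) and Arhgap32 (r = 0.996), and Klf2 to Pex3 (r = 0.966) and Ntng2 (r = 0.954). Between members, Klf5 and Klf6 ran opposite (r = -0.984) and Klf3 and Klf5 together (r = 0.940).

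Of the genes that start within 100 kb of the other members, Odf1 near Klf10 was higher in KO (0.36, limma adjusted p = 0.00777) and Fam32a near Klf2 was lower (-0.16, adjusted p = 0.00996). E030018B13Rik (-0.11, adjusted p = 0.0750), Mir1192 (-0.11, 0.308) and Mir6899 (0.052, 0.676) did not pass. They lie within the bounds of Klf13, Klf9 and Klf7, in that order, and not beside them. Whether their scores share fragments with those of the members was not tested. Klf3, Klf4 and Klf5 had no other gene start within 100 kb.

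Genes related to the family were read from the same fit over all nuclei, in which 29.1% of all genes were higher and 14.2% lower. Of the other 8 Klf genes, 3 were higher and 1 lower. Klf1, the erythroid activator, was lower (-0.18, limma adjusted p = 0.00562), a call lost when nuclei were weighted by fragments (adjusted p = 0.141). Klf8 (0.40, adjusted p = 0.0180), Klf14 (0.35, 0.0278) and Klf12 (0.30, 0.0456), the last named after its value was seen, were higher. The calls of Klf8 and Klf14 were lost under 5 and 8 of 18 alternatives. Of 8 Sp genes tested, 2 were higher (Sp6, 0.48, and Sp8, 0.30) and 1 lower, and the calls of Sp6 and Sp8 were lost under 2 and 10 of 18 alternatives. Sp3, a relative that competes for GC boxes, fell (-0.20, limma adjusted p = 0.000974). Of 10 cofactors, 2 were higher, Hdac2 (0.23, adjusted p = 0.0177) and Fhl3 (0.29, 0.0486), and none lower, and these calls were lost under 6 of 19 and 11 of 18 alternatives.

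Of 4 tested lymphocyte trafficking genes known as Klf2 targets, Itgb7 (0.98, limma adjusted p = 2.56e-06) and S1pr1 (0.76, 3.80e-06) rose and none fell. S1pr1 scored 19.3, 21.6 and 17.7 in WT and 36.1, 32.9 and 31.8 in KO. In the MEF2 pathway, which lies upstream of Klf2 and Klf4, 4 of 5 genes rose, including Mapk7 (0.50, adjusted p = 1.82e-07) and Mef2a (0.35, 0.00167). Of 7 TGF-beta pathway genes, 4 rose, among them Smad7 (0.96, 4.45e-05) and Smad3 (0.63, 2.07e-05), and Tgfbr1 fell (-0.28, 0.000571). Of 6 glucocorticoid response genes, Fkbp5 (0.51, 0.000210) and Zbtb16 (0.37, 0.0211) rose and the receptor gene Nr3c1 fell (-0.30, 0.000135). The libraries of the genotypes overlapped for Zbtb16, and its call was lost under 7 of 18 alternatives. The calls of Smad7 (adjusted p = 0.0925) and Mef2a (0.187) were lost when nuclei were weighted by fragments, 1 of 18 and 1 of 19 alternatives. The medians of these 4 lists were 0.42, 0.27, 0.36 and 0.084, against 0.096 over all genes and 0.26 and 0.24 in the lower-scored groups of genes, and the counts stand against 29.1% of all genes higher and 14.2% lower. In Int nuclei, where 12.7% of all genes were higher and 7.1% lower with a median change of 0.057, the trafficking genes kept the calls of Itgb7 (0.97) and S1pr1 (0.64). The MEF2 pathway had 2 of 5 higher, Mapk7 (0.42) and Mef2d (0.30), the last named after its value was seen, and the TGF-beta pathway kept Smad7 (0.78), Smad3 (0.54) and Tgfbr1 (-0.22). The glucocorticoid list kept Fkbp5 (0.47) and Nr3c1 (-0.24). None of the other 8 Klf genes passed there in limma, with 1 at an unadjusted p under 0.05. Of 9 Sp genes, Sp6 was higher (0.45) and Sp3 (-0.16) and Sp4 (-0.15) were lower, and of 10 cofactors Ctbp1 was lower (-0.14), Sp4 and Ctbp1 named after their values were seen. In Late nuclei, where 32.9% of all genes were higher and 18.5% lower with a median change of 0.052, 3 of 7 other Klf genes tested were higher (Klf11, Klf12 and Klf14) and Klf1 was lower (-0.23). Klf11, named after its value was seen, changed by 0.15, Klf12 by 0.69 and Klf14 by 0.33. Late counts were 2 higher and 0 lower of 4 trafficking genes, 4 and 0 of 5 in the MEF2 pathway, 3 and 1 of 6 in the TGF-beta pathway and 3 and 2 of 6 in the glucocorticoid list, with medians of 0.45, 0.36, 0.38 and 0.15. They were 1 and 1 of 7 Sp genes and 2 and 1 of 10 cofactors. In cluster C5, where 0.412% of all genes were higher and 0.478% lower, 1 of 5 MEF2 pathway genes was higher. No gene of the other related lists passed there. Medians in C5 were 0.32 for trafficking genes, -0.10 for the MEF2 pathway, 0.32 for the TGF-beta pathway and 0.10 for the glucocorticoid list, against 0.066 over all genes.

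Markers of other cell types moved in the same libraries, and their part in the Klf values was not tested. The counts stand against 29.1% of all genes higher and 14.2% lower. Median changes were 0.26 in the lowest-scored group of genes and -0.071 in the highest, to which Hba-a1, Hbb-bs and Gp9 belong. Sums, also those by class below, run over every listed marker with a score, tested or not. These were 9 erythroid, 11 myeloid, 9 lymphoid, 7 megakaryocyte and mast and 6 stem and progenitor markers. Of 9 tested erythroid markers, 7 were lower and none higher, including Hba-a1 (-0.34, limma adjusted p = 0.000300) and Hbb-bs (-0.28, 0.00261). Of 9 myeloid markers tested, 4 were higher, including S100a9 (0.50, 0.00205) and Cebpa (0.48, 0.00186), with summed scores of 203.2 to 242.5 in WT and 238.4 to 266.4 in KO. Of 4 lymphoid markers tested, Pax5 (0.40, 0.0115) and Ebf1 (0.37, 0.00904) were higher, with sums of 83.8 to 93.3 and 100.02 to 106.9. Of 6 stem and progenitor markers, 4 were higher, including Hoxa9 (0.72, 0.0167), whose libraries overlapped, and Hlf (0.40, 0.0138), with sums of 50.9 to 61.0 and 66.9 to 79.3. Hoxa9 scored under 5 in WT replicates 1 and 3, but not in WT replicate 2 or any KO library. It was tested because the minimum of 5 is on the mean over both genotypes. Of 4 megakaryocyte and mast markers, Itga2b was higher (0.79, 3.98e-09) and Gp9 lower (-0.22, 0.00497), with sums of 186.5 to 213.5 and 224.6 to 237.8. The calls were lost under 6 of 17 alternatives for Hoxa9, 6 of 18 for Hlf, 4 of 18 for Pax5, 3 of 18 for Ebf1, 4 of 19 for Gp9, 2 of 18 each for S100a9 and Cebpa and 1 of 19 for Hbb-bs. In Int nuclei 5 of 9 erythroid markers were lower and 3 of 11 myeloid markers higher, and Itga2b (0.82) and Gp9 (-0.18) kept their directions. There none of 7 lymphoid or 6 stem and progenitor markers passed in limma, with 1 of each at an unadjusted p under 0.05. The Int sums of the genotypes overlapped, at 97.9 to 115.1 in WT and 114.7 to 125.3 in KO for lymphoid and 64.2 to 83.7 and 82.1 to 91.8 for stem and progenitor markers, and so did those of erythroid markers, at 1684 to 1905 and 1549 to 1692. They were apart for myeloid markers, at 168.3 to 198.5 and 213.9 to 229.7, and for megakaryocyte and mast markers, at 199.6 to 231.5 and 238.9 to 256.8. In Late nuclei, against 32.9% of all genes higher and 18.5% lower, 7 of 9 erythroid markers tested were lower. Higher were 5 of 9 myeloid, 2 of 4 lymphoid and 4 of 4 stem and progenitor markers tested. These lists held 11, 9 and 6 markers, and the rest were under the minimum of 5, which is on the mean over both genotypes. Of 4 megakaryocyte and mast markers, 2 were higher and 1 lower. The Late sums were apart for erythroid (2291 to 2368 in WT and 2008 to 2121 in KO), lymphoid (64.7 to 72.6 and 81.0 to 87.9), stem and progenitor (32.6 to 37.7 and 51.7 to 56.9) and, narrowly, myeloid markers (247.1 to 264.5 and 265.5 to 301.7), and overlapped for megakaryocyte and mast markers (167.9 to 202.4 and 200.3 to 222.03). No marker was at 0 in any library.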

How the data were processed

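Accessibility was compared in the 6 Ter119+ ATAC libraries, 3 per genotype. The gene scores are a signal that the authors had scaled so that each nucleus summed to 9999.855 to 10000.12, and 25.2% of values were above 0. Cell Ranger and the mm10 build are named per the submitters' processing notes, and the software behind the scores is not given in the sources used here. The table of nuclei listed each nucleus 2 times, and 1 copy was used; 0 columns were left unmapped.

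Scores were averaged per library, rescaled to 1000000, and log2 values with a pseudocount of 1 were fitted with limma 3.58.1 in R 4.3.3 (variance trend, two-sided) for genes of mean at least 5, with Benjamini-Hochberg adjustment over all genes and a threshold of 0.05. A log2(value + 1) change understates that of low genes. The difference of changes between classes was fitted on differences within libraries, with the variance trend on the mean level. Nothing in the labels ties libraries to separate animals, so p-values measure only the spread between these libraries. Python 3.11.15, numpy 2.4.6, pandas 2.3.3, scipy 1.17.1 and matplotlib 3.10.9 served for sums, permutation tests and figures. The fit over all nuclei was run on simulated data with independent noise between libraries and without shifts in scaling. The other fits were not simulated.

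The rule for named genes took the 9 genes and Klf1, the tested neighbour starting within 100 kb with the largest change, the 2 genes most like each (over 500 kb away on the same chromosome), and per list the 2 largest changes each way past the threshold. The members and lists were chosen with earlier results of these data known. Scaling, pseudocounts of 0.1 and 5, filters, fragment windows, weighting, the replicate block and each library left out were alternatives. Klf2 without 1 nucleus and 2 variance models were added after seeing the data.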

Additional observations from a re-analysis of the deposited data

Results flagged for a closer look

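The change of Klf5 between genotypes differed between the classes: it was larger in Late than in Int nuclei by -0.29 on the log2 scale (SE 0.085, limma adjusted p = 0.0423), as a test of the difference itself. The Late minus Int difference within libraries was -0.52, -0.42 and -0.60 in WT and -0.89, -0.83 and -0.68 in KO, with all KO libraries below all WT libraries. That was so for Klf9 too, and for Klf4 all KO libraries lay above all WT libraries, though neither gene passed this test (limma adjusted p = 0.174 and 0.284). The share of all genes set apart in this way was not counted, so these separations cannot be weighed against a background. In the test itself 7.49% of 17747 genes passed. The call was lost under 9 of 14 alternatives.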

How the results depend on the processing

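Over all nuclei, 5 Klf genes passed; the count was 3 with nuclei weighted by fragments, and 4 to 5 with 1 library left out. Calls over all genes went from 7661 of 17682 tested to 4244 of 10362 with a filter at a mean of 20. They went to 2415 of 18859 with nuclei weighted by fragments, and ranged from 5355 to 8440 with 1 library left out. In Int nuclei 4 Klf genes passed, 3 to 5 with 1 library left out, and calls over all genes went from 3858 to 1921 without a variance trend and ranged from 2547 (without KO replicate 1) to 4782. In Late nuclei 5 Klf genes passed, 3 with quantile normalization or cyclic loess and 3 to 7 with 1 library left out. Calls over all genes there went from 8161 of 15886 tested to 4560 of 9890 with the filter at 20. In cluster C5, 1 Klf gene passed, 0 to 2 with 1 library left out. Calls over all genes there went from 173 of 19438 tested to 115 of 24008 without a filter. They ranged from 8 (without KO replicate 1) to 329 (without WT replicate 1). For the difference between classes, 1 Klf gene passed, and 0 did with a pseudocount of 5, no filter, quantile normalization, the variance trend on the mean difference or no variance trend, and 0 to 2 with 1 library left out. Its calls over all genes went from 1329 of 17747 tested to 601 of 10330 with the filter at 20 and to 741 with quantile normalization. They were 28 with the trend on the mean difference and 430 without a trend. With 1 library left out they ranged from 375 (without KO replicate 2) to 2700 (without WT replicate 3). The filters changed the number of genes tested, as given, and the cause of the shifts beyond that was not tested.

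Signs turned for values that had not passed. Over all nuclei Klf7 became -0.26 with quantile normalization, -0.20 with cyclic loess, -0.14 with median centring, -0.038 with nuclei weighted by fragments and -0.0385 with classes weighted equally. With 1 library left out it ran from -0.077 to 0.099, and was negative on leaving out WT replicate 1, KO replicate 1 or WT replicate 3. Klf10 became 0.040 with quantile normalization and 0.041 with cyclic loess over all nuclei. In Int nuclei it became 0.0495 and 0.058 with these scalings and 0.021 at 5000 to 15000 fragments. In Int nuclei Klf9 became 0.0046 and 0.012 with quantile normalization and cyclic loess. In Late nuclei Klf2 became -0.11 and -0.055, and Klf7 -0.090 and -0.046, with these scalings. In C5, Klf10 ranged from -0.056 to 0.076 with 1 library left out. For the difference between classes, with 1 library left out, Klf2 ranged from -0.22 to 0.16 (positive without WT replicate 3 or KO replicate 1), Klf3 from -0.073 to 0.098 (negative without WT replicate 3 or KO replicate 2) and Klf6 from -0.034 to 0.012 (positive without WT replicate 1 or KO replicate 2).

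Replicate numbers were not taken to pair libraries. Deviations of same-numbered libraries correlated at -0.12, -0.27 and 0.21 over all nuclei, 0.13, -0.084 and 0.19 in Int and 0.087, 0.045 and 0.051 in Late nuclei. In Late nuclei every library correlated best with its own number, at the low values given, which does not show pairing. Over all nuclei and in Int nuclei not every library did, and over all nuclei WT replicate 2 ran closest to KO replicate 1 (0.42). With the replicate block, 5, 4, 5 and 1 Klf genes passed over all, Int, Late and C5 nuclei and 1 for the difference between classes, and calls over all genes were 7470, 4527, 7982, 205 and 1844.

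With 3 libraries against 3, small changes of low-scored genes such as Klf4 and Klf7 are the least certain, and a change under the spread between libraries was not detectable. Depth per nucleus differs between genotypes in Int nuclei, and 1 deep score in a shallow nucleus can move a low gene, as for Klf2.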

Other observations

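In cluster C5, Klf2 and Klf7 scored lower in every KO library than in every WT library, as did 5 of the 9 members in all and 7.89% of all genes. Klf2 scored 34.6, 24.1 and 33.3 in WT and 20.4, 19.1 and 23.4 in KO, a log2 change of -0.52 (SE 0.21, limma adjusted p = 0.322), against 0.22 in Int nuclei and 0.24 over all nuclei. Klf7 scored 20.5, 29.6 and 33.6 in WT and 14.1, 18.4 and 18.8 in KO, a change of -0.66 (SE 0.24, adjusted p = 0.258), against -0.18 in Int nuclei and 0.011 over all nuclei, where the sign turned under 8 of 18 alternatives. Neither change in C5 passed the test, and whether it differs from that in other nuclei was not tested. C5 nuclei had a median of 3909 to 4163 fragments in WT and 4745 to 5033.5 in KO. Before rescaling, the highest Klf7 score among Int nuclei of WT replicate 3 was 24.2, in 1 C5 nucleus of 1365 fragments, against at most 8.35 in any KO library. For Klf2 the highest Int scores of WT replicates 1 and 3 also lay in C5 nuclei, at 13.2 (2100 fragments) and 16.5 (3060 fragments). In the KO libraries they lay in C5 too, at 8.15, 11.7 and 10.7. The part of single nuclei in the C5 changes was not tested.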
